A study of Mus musculus with 16 samples.

Results

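The cytosolic ribosomal protein genes were taken as every gene name in the deposited table that is Rpl or Rps followed by a number and at most the letters a, x, y or l, together with Rplp0, Rplp1, Rplp2 and Fau. This gave 74 genes of 22572 gene names, 45 of the large and 29 of the small ribosomal subunit. Names of pseudogenes and S6 kinases were left out, and Rpsa, which the rule also asks for, has no entry of its own in the table. The rule picks genes by name and uses no measured value, but it was chosen with earlier results of these data known.

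The hippocampus of male C57BL/6 mice was sequenced as polyadenylated RNA in 16 libraries, 4 in each of 4 groups. Mice were wild type (WT) or lacked the X-linked gene for biglycan, a small proteoglycan of the extracellular matrix (Bgn0/-, here BgnKO). From 3 months of age they drank regular water or water with 15% w/v fructose for 6 weeks. The groups are called WT water, WT fructose, BgnKO water and BgnKO fructose, each with replicates 1 to 4. All animals were of the same strain and sex, and the knockout is described in the labels without a tissue or cell type to which it would be limited. The labels do not say that each library is a separate animal, and each p-value therefore describes only the scatter among libraries, which may be technical. In bulk tissue, fewer cells of a type and less RNA per cell cannot be told apart.

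Ribosomal proteins are built with ribosomal RNA into a small subunit, which reads the messenger RNA, and a large subunit, which forms peptide bonds. Their messenger RNAs are typical TOP mRNAs, which begin with a tract of pyrimidines and whose translation is switched by the mTORC1 pathway, so that much of their control is not visible in the RNA level. The family is also known for its many processed pseudogenes, near-copies of the messenger RNA spread over the genome that compete for short reads.

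The short sequences at the annotated starts are shown because the pyrimidine tract is the shared feature by which the family is regulated. Each is 30 bases, 10 before and 20 from the start on, read 5′ to 3′ on the gene's own strand from RefSeq GRCm38.p6. Capitals mark a run of at least 7 consecutive C or T that begins within 5 bases of the start. The first 5 lines are genes with such a tract, and the last 3 lines are the 2 genes that passed the test below and the most abundant member, in which no run begins that close to the start. Runs of this length that begin further from the start are not marked, and the windows of Rpl39 and Rplp0 each hold one. The windows lie at chr19:6057937-6057966 (Fau, plus strand), chr4:86857348-86857377 (Rps6, minus), chr7:4792955-4792984 (Rpl28, plus), chr11:114668570-114668599 (Rpl38, plus), chr7:109519185-109519214 (Rpl27a, plus), chr5:115559457-115559486 (Rplp0, plus), chrX:37085203-37085232 (Rpl39, minus) and chr10:128549149-128549178 (Rpl41, minus).
Fau: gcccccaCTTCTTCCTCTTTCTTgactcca
Rps6: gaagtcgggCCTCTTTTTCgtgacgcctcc
Rpl28: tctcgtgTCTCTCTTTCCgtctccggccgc
Rpl38: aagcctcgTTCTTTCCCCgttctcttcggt
Rpl27a: cgtgagCTCCTCCCTTTTCCCTTTCTgcca
Rplp0: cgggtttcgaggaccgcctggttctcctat
Rpl39: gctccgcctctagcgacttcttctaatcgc
Rpl41: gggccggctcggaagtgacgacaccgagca

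A promoter was matched by name for 57 of the 74 genes. A tract was found in 17 of them (29.8%), against 8.88% of all 27025 genes with a promoter in the same table. Of these genes, 16 with a tract and 28 without one could be tested below. Another 3 words were counted on both strands of the 300 bases from 250 before to 50 after the start. CCGGAAG, the core of the site of ETS factors, was present in 23 genes (40.4%, against 9.93% of all genes). GGGCGG, the core of the GC box, was present in 34 genes (59.6%, against 38.2%). AAGATGG, the core of the YY1 site, was present in 9 genes (15.8%, against 7.28%). CCGGAAG ends in the letters with which AAGATGG begins, so that the words can overlap. These are matches of letters and not measured sites.

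The deposited FPKM of the family is a value per length of transcript, and the order of the genes below is that of the listed values. Averaged over the 16 libraries, 8 genes were above 100 FPKM, 30 between 10 and 100, 19 between 1 and 10, and 17 below 1. The highest were Rpl41, a very short basic protein of the large subunit, at 324.8 FPKM, Rpl4 at 276.4, Rpl8 at 273.9, the stalk protein gene Rplp1 at 258.3 and Rps15 at 249.9. The 3 highest genes carried 29.5% of the summed FPKM of the family and the 10 highest 69.5%. Most ribosomal proteins enter the ribosome in equal numbers, and the messenger values of the family were far apart in this table.

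**Figure D1:**
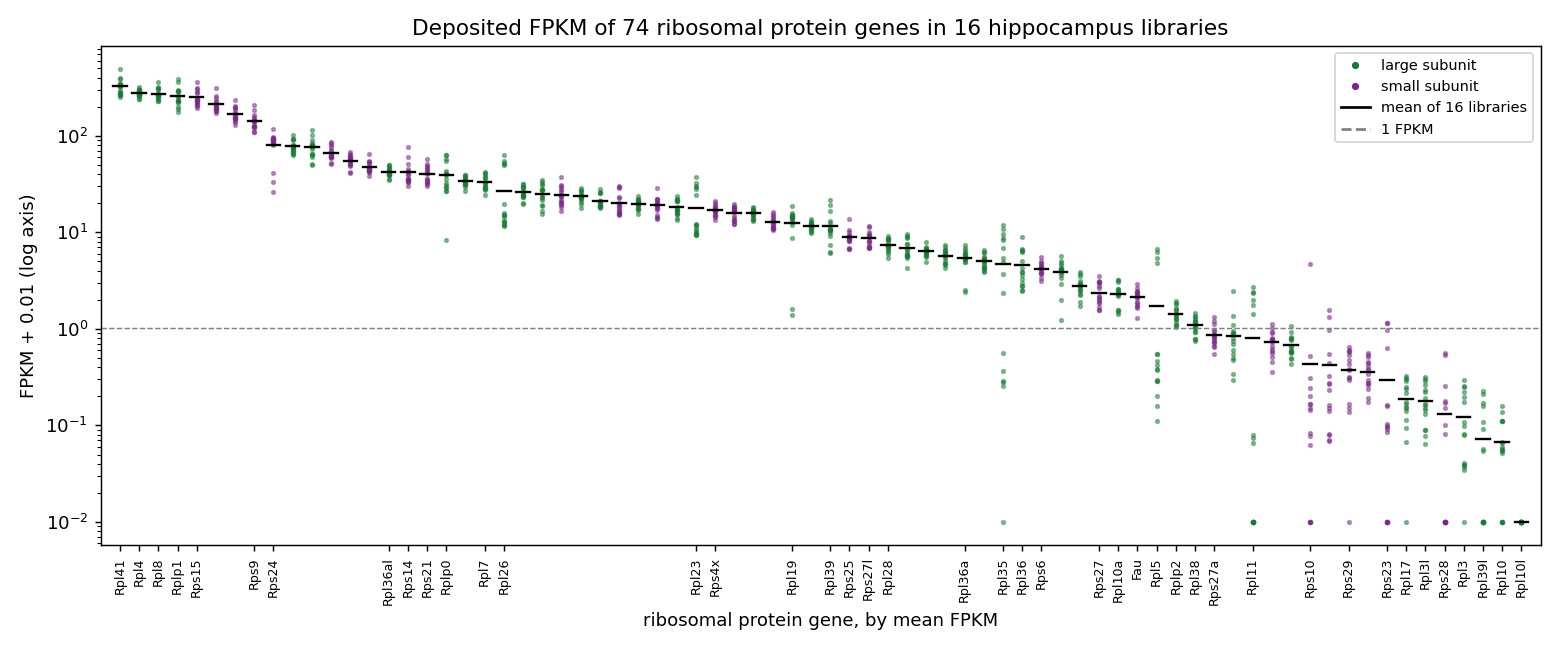
Deposited FPKM of the 74 genes in each of the 16 libraries, on a log axis after adding 0.01 so that values of 0 can be drawn, with genes ordered by their mean (black bars), coloured by subunit and labelled where the text describes them. The means run from 324.8 FPKM for Rpl41 to 0 for Rpl10l, and 17 genes lie under the dashed line at 1 FPKM.

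Genes that every cell needs stood among those below 1 FPKM. The 17 were Rpl3, Rpl9, Rpl10, Rpl11, Rpl17, Rpl24, Rps7, Rps10, Rps13, Rps16, Rps23, Rps27a, Rps28 and Rps29, and the paralogs Rpl3l, Rpl10l and Rpl39l. Rpl3, which lies at the peptidyl transferase centre, was listed at 0 to 0.286 FPKM, and Rpl10, which joins late to the large subunit, at 0 to 0.151 FPKM. Of the 74 genes 11 were listed at 0 in at least 1 library: Rpl3, Rpl10, Rpl10l, Rpl11, Rpl17, Rpl35, Rpl39l, Rps10, Rps23, Rps28 and Rps29. Since such genes are used by all cells, a value of 0 is given only as listed and not as absence of the RNA. The gene just below the limit of 1 FPKM was Rps27a, which encodes a fusion of ubiquitin and a small subunit protein, at 0.855 FPKM, and the gene just above it was Rpl38 at 1.08 FPKM.

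Sequence shared with other genes was counted beside the values. For each member a transcript in GENCODE vM21 was cut into words of 31 bases, and words also found in transcripts of other genes were counted. Of the 74 genes 73 shared some words, with a median of 61.0% of words, and 50 shared more than 50%. The 28 genes that shared 75% or more of their words had a median of 4.77 FPKM and 8 of them were below 1, and the 8 genes that shared under 25% had a median of 33.4 FPKM and 3 of them were below 1. Over the 74 genes Spearman's rho between mean FPKM and the share of words was -0.31, and between mean FPKM and transcript length it was 0.07. Both are descriptions across genes, which share libraries and a counting method. The sources used here do not say how reads with several matches were treated, and its part in these levels was not tested.

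For 2 genes the closest copy has an entry of its own in the table. Rplp2, which with Rplp1 and Rplp0 forms the stalk that recruits translation factors, had a mean of 1.42 FPKM. The entry named for its pseudogene and Wdr89, a gene that shares 76.5% of the words of Rplp2, had 81.8 to 145.0 FPKM. A further entry that joins Rplp2 with a small nucleolar RNA in its locus had 2.21 to 9.50 FPKM. Rps23, a protein of the decoding centre, had a mean of 0.287 FPKM, and the entry Gm5148, which shares 43.8% of its words, had 47.8 to 78.9 FPKM. Whether reads of these 2 genes were counted under those entries was not tested. The values under their own names are therefore given only as listed and not as their levels.

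A further 9 family entries stand in the table joined with a neighbour or a small RNA, and were not members. The largest was the entry joining Rpsa with Mobp, a myelin gene, at 193.0 to 366.3 FPKM, in which reads of both genes are together. The entry joining Rpl13a with a microRNA and a small nucleolar RNA was at 42.0 to 68.7 FPKM in 15 libraries and at 480.6 in WT water replicate 2.

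The paralogs with tissue-restricted expression were close to 0, as were the parent genes Rpl10 and Rpl3 but not Rpl39. Rpl10l, known from testis, was listed at 0 in every library, and Rpl39l, also known from testis, at 0 to 0.218 FPKM. Rpl3l, known from heart and skeletal muscle, was listed at 0.0536 to 0.307 FPKM, a range close to that of its parent Rpl3. Rps27l, a p53-regulated paralog, was at 6.79 to 11.7 FPKM and above its parent Rps27, which was at 1.54 to 3.54 FPKM in the 16 libraries and shares 98.7% of its words with other genes. Rpl36al was at 35.04 to 49.3 FPKM and its parent Rpl36a at 2.38 to 7.38. Rpl36al is listed at 2 loci. One locus held 35.5 FPKM in BgnKO water replicate 2 and 43.9 in replicate 3, where the other was at 0, and the other locus held 33.9 to 49.3 FPKM in the remaining 14 libraries.

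The summed FPKM of the 74 genes was 2713 ± 200.0 (SD, n = 4) in WT water, 2947 ± 247 in WT fructose, 2772 ± 349 in BgnKO water and 3449 ± 458 in BgnKO fructose. As a share of the FPKM on named loci this was 0.763 ± 0.060%, 0.817 ± 0.055%, 0.786 ± 0.085% and 0.936 ± 0.124%. The groups overlapped: BgnKO water replicate 4 was at 3234 FPKM and BgnKO fructose replicate 2 at 2908. The highest library was BgnKO fructose replicate 4 with 4026 FPKM and the lowest BgnKO water replicate 2 with 2409. No test was made of a sum over chosen members.

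The denominator decides the order of the groups in this sum. Loci without a gene name held 53.6 ± 2.06% of all FPKM in WT water, 56.5 ± 6.48% in WT fructose, 55.6 ± 7.21% in BgnKO water and 64.9 ± 5.76% in BgnKO fructose. Over all loci the family's share was 0.353%, 0.354%, 0.351% and 0.325%, with BgnKO fructose lowest instead of highest. The ratio of large to small subunit FPKM varied little, from 1.28 in BgnKO fructose replicate 4 to 1.48 in BgnKO water replicate 1, and group means were 1.37 to 1.43.

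**Figure D2:**
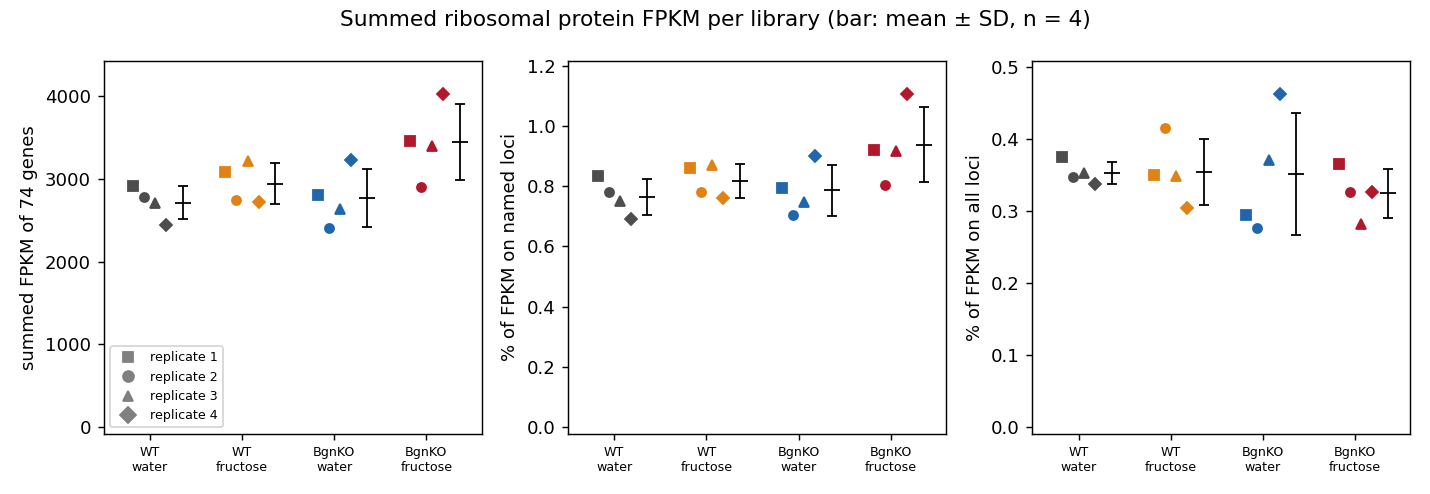
Summed FPKM of the 74 genes per library (left), as a percentage of FPKM on named loci (middle) and on all loci (right), by group, with the mean ± SD (n = 4) and a marker for each replicate number. BgnKO fructose has the highest mean in the left and middle panels (3449 FPKM and 0.936%) and the lowest in the right panel (0.325%).

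Some facts of the series bear on every comparison. Bgn itself was at 9.94, 11.7, 17.7 and 24.2 FPKM in WT water and at 4.46 to 7.60 in the 8 BgnKO libraries. It was at 20.7, 21.2 and 17.2 in WT fructose replicates 2 to 4 but at 5.42 in the library labelled WT fructose replicate 1, within the range of the knockout. That library also had the lowest sums of choroid plexus markers (229 FPKM) and of meninges and fibroblast markers, Bgn among them (30.9). Why Bgn was low there was not tested. In limma Bgn differed between genotypes by -1.09 on water (adjusted p = 0.370) and -1.07 on fructose (adjusted p = 0.0869), past the threshold in neither. BgnKO fructose replicate 4 stood apart in the family, with the highest value of 22 of the 57 tested genes, and WT water replicate 4 had the lowest value of 13. All 8 neuron, 8 astrocyte and 8 microglia markers and 7 of 8 oligodendrocyte markers were found, none of those found was at 0, and choroid plexus markers summed to between 229 and 9148 FPKM. FPKM carries no read depth, so no counting error is given.

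Tests were made on log2(FPKM + 1) with limma across the 12648 genes that averaged 1 FPKM or more, among them 57 members (36 large and 21 small subunit). Fold changes on this scale understate the change of low genes. The 57 are those that passed the filter and not all members.

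BgnKO was first compared with WT among animals on fructose, the comparison with the most calls in the series. Here 2 of the 57 members rose and none fell (limma, adjusted p under 0.05), which is 3.51% of them beside 3.76% of all genes called in either direction, a share near the background. Of all genes 1.63% were called higher and 2.13% lower. Both genes belong to the large subunit: Rpl39 lines the exit tunnel of the nascent chain, and Rplp0 is the base of the stalk. With the replicate number added to this main fit as a block, 7 members were called (12.3%, beside 19.6% of all genes). Rpl28 was among them, and lower.

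Rpl39 lies on chromosome X at 37082520 to 37085402 on the minus strand (GRCm38), 36.4 Mb from Bgn, and shares 23.7% of its words with other genes. It was at 10.6, 9.24, 10.9 and 6.23 FPKM in WT water and at 10.7, 7.40, 9.92 and 6.08 in WT fructose. In BgnKO it was at 10.5, 10.2, 12.3 and 11.2 FPKM on water and at 19.3, 13.0, 21.5 and 16.8 on fructose. All 4 BgnKO fructose libraries were thus above the other 12, and the other 3 groups overlapped. BgnKO fructose was higher than WT fructose by 0.98 on the log2 scale (SE 0.18, limma adjusted p = 0.0102), and leaving out any 1 library gave adjusted p of 0.00567 to 0.0395. On water the difference was 0.26 (limma adjusted p = 1).

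Rplp0 lies on chromosome 5 at 115559467 to 115563727 on the plus strand and shares 53.3% of its words with other genes. It was at 32.1, 28.7, 26.7 and 38.9 FPKM in WT water, and at 29.4, 26.8, 30.9 and 8.38 in WT fructose. In BgnKO it was at 41.1, 35.7, 40.6 and 57.9 FPKM on water and at 54.9, 43.0, 63.1 and 62.6 on fructose. WT fructose replicate 4 stood far below every other library, and the 2 groups on fructose did not overlap. BgnKO fructose was higher by 1.33 on the log2 scale (SE 0.30, limma adjusted p = 0.0258) and by 0.91 without WT fructose replicate 4 (limma adjusted p = 0.0174). The call was lost without BgnKO fructose replicate 3 (adjusted p = 0.0672) or replicate 4 (adjusted p = 0.0847) in the same limma fit. On water the difference was 0.45 (limma adjusted p = 1).

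Rpl28 lay close to the threshold without passing it in the main fit. Rpl28, a protein of the surface of the large subunit, was at 7.90, 8.50, 8.62 and 9.14 FPKM in WT fructose and at 7.0, 6.19, 7.23 and 6.60 in BgnKO fructose. It was at 8.40, 7.29, 8.50 and 7.43 FPKM in WT water and at 7.18, 6.79, 5.47 and 5.95 in BgnKO water. Every one of the 8 BgnKO libraries was below all 8 WT libraries, and the library labelled WT fructose replicate 1 lay with the WT ones. The log2 difference was -0.30 on fructose (SE 0.08, limma adjusted p = 0.0512) and -0.28 on water (SE 0.08, limma adjusted p = 0.269). Rpl28 lies on chromosome 7 at 4792874 to 4795066, away from Bgn.

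Among the abundant genes, Rpl41 was higher by 0.38 (adjusted p = 0.128), Rps14, a platform protein of the small subunit, by 0.48 (0.133), Rps9 by 0.33 (0.152) and Rpl8 by 0.22 (0.209) in the limma fit, with overlapping groups for each of these 4. With the replicate block Rpl41, Rps14 and Rps9 were called.

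Across the tested members, 10 had an unadjusted limma p under 0.05 (17.5%), below the 21.3% of all genes, and 8 of the 10 were higher (14.0%, beside 10.3% of all genes). The 10 became 6 (10.5%) without WT fructose replicate 2 (17.6% of all genes), WT fructose replicate 4 (16.7%) or BgnKO fructose replicate 4 (14.2%). They became 17 (29.8%, beside 21.9%) without BgnKO water replicate 4 and 18 (31.6%, beside 22.1%) without BgnKO fructose replicate 2, where the members' share was above that of all genes and not below it. The log2 fold was above 0 in 40 of 57 members (70.2%), beside 47.5% of all genes, and its median was 0.09 beside -0.01. Without BgnKO fructose replicate 4, 35 of 57 were above 0 (61.4%, beside 51.3% of all genes). Members whose groups did not overlap were 3 higher (4.61% of all genes) and 1 lower (6.43%). The median was 0.20 in the small and 0.08 in the large subunit, and 0.27 in the 8 genes above 100 FPKM, all of which were above 0.

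**Figure D3:**
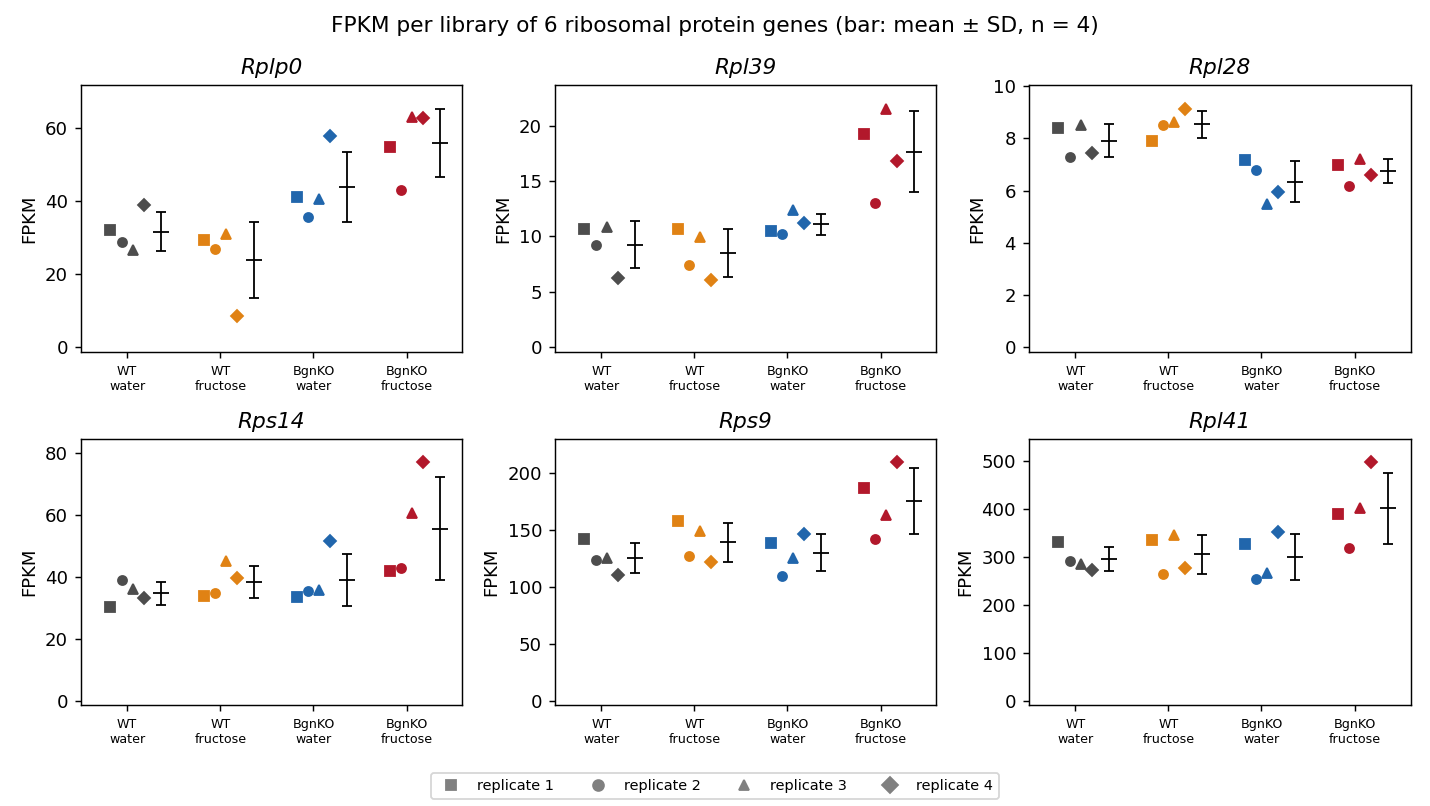
FPKM per library of Rplp0, Rpl39, Rpl28, Rps14, Rps9 and Rpl41 in the 4 groups, with the mean ± SD (n = 4) and a marker for each replicate number. Rpl39 is higher in all 4 BgnKO fructose libraries than in the other 12, Rpl28 is lower in all 8 BgnKO libraries than in the 8 WT libraries, and Rplp0 in WT fructose replicate 4 lies at 8.38 FPKM.

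Markers of cell types were also set side by side in this comparison, and of the sums given only those of astrocytes did not overlap. Astrocyte markers summed to 1340 to 1439 FPKM in WT fructose and 1484 to 2030 in BgnKO fructose, and 3 of the 8 (Aqp4, Gfap and Gja1) rose in the same limma test, beside 1.63% of all genes. Of 7 hippocampus markers 1, Wfs1, fell, beside 2.13% of all genes. Microglia markers, 8 of 8 found, summed to 165 to 210 and 204 to 288 FPKM, neuron markers, 8 of 8, to 2694 to 3258 and 2227 to 2868, and choroid plexus markers, 8 of 8, to 229 to 4443 and 2630 to 9148. The 229 FPKM is from the library labelled WT fructose replicate 1, and the next lowest sum in its group was 2197.5. Oligodendrocyte markers, 7 of 8, summed to 1976 to 2694 and 2015 to 3171 FPKM. Endothelium markers, 6 of 8, summed to 53.8 to 68.5 and 55.4 to 84.7, and meninges and fibroblast markers, 8 of 8, to 30.9 to 174 and 75.4 to 347. Apart from astrocyte and hippocampus markers none was called, beside 1.63% of all genes higher and 2.13% lower. The part of these markers in the ribosomal protein values was not tested.

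BgnKO was next compared with WT on water. Here limma called 0 of 57 members, beside 0.387% of all genes. Unadjusted p was under 0.05 for 4 members (7.02%, beside 5.33% of all genes), 2 higher (2.45% of all genes) and 2 lower (2.88%). Without BgnKO water replicate 3 it was so for 2 members (3.51%, beside 4.24% of all genes). Groups did not overlap for 0 members higher (1.75% of all genes) and for 1 lower, Rpl28 (2.26%). The 4 were Rpl28, given above, Rpl10a with -0.39 (limma adjusted p = 0.491), Rps6, the small subunit protein phosphorylated by S6 kinases, with 0.20 (0.862), and Rps24 with 0.78 (0.918). The fifth by p was Rps4x, the X-linked copy of a small subunit gene, with -0.18 (limma adjusted p = 1). Rps24 was at 89.9 and 86.5 FPKM in WT water replicates 1 and 2 and at 32.8 and 25.9 in replicates 3 and 4, and the BgnKO water libraries were at 80.8 to 96.6. Of the log2 folds, 32 of 57 were above 0 (56.1%, beside 49.4% of all genes), with a median of 0.03 beside -0.00 for all genes. This direction turned without BgnKO water replicate 4, where 22 of 57 were above 0 (38.6%, beside 49.9%) with a median of -0.05, and without WT water replicate 4, where 23 of 57 were (40.4%, beside 47.4%) with a median of -0.03.

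Fructose was then compared with water within each genotype. In WT no member was called (0 of 57, beside 0.00791% of all genes in limma), and 6 had an unadjusted p under 0.05, all higher (10.5%, beside 2.08% of all genes in either direction and 1.37% higher). They became 3 (5.26%) without WT water replicate 4 (1.01% of all genes) or without the library labelled WT fructose replicate 1 (2.37%). With the replicate number as a block they were 7 (12.3%, beside 6.52%). Fau, which encodes a ubiquitin-like protein fused to a small subunit protein, was at 1.86, 1.91, 1.29 and 1.71 FPKM on water and at 2.17, 2.89, 2.29 and 2.38 on fructose. The groups did not overlap and the difference was 0.35 (SE 0.10, limma adjusted p = 1). Groups of Rpl38, needed for translation of Hox messages in the mouse embryo, did not overlap either (0.26), and those of Rpl7 (0.36), Rps6 (0.21) and Rps24 (0.82) overlapped, each with a limma adjusted p of 1. In all, 3 of 57 members had no overlap in that direction, beside 1.09% of all genes.

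In WT 48 of 57 members had a log2 fold above 0 (84.2%, beside 54.3% of all genes), with a median of 0.12 beside 0.01. Without WT water replicate 4, the library with the lowest values, 39 of 57 were above 0 (68.4%, beside 53.2% of all genes) with a median of 0.07. Without the library labelled WT fructose replicate 1, 45 of 57 were above 0 (78.9%, beside 51.8%). Choroid plexus markers summed to 2505 to 6039 FPKM in WT water and 229 to 4443 in WT fructose, with 0 of 8 log2 folds above 0 and a median of -0.68. Oligodendrocyte markers summed to 1907 to 2561 and 1976 to 2694 FPKM, with 7 of 7 above 0 and a median of 0.09. Their part in the ribosomal protein values was not tested.

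In BgnKO most members had higher values on fructose, but no single gene was called. None of the 12648 genes passed the adjusted threshold (0%), and 19 of the 57 members had an unadjusted limma p under 0.05, all higher (33.3%, beside 12.9% of all genes in either direction, 6.34% higher and 6.55% lower). The log2 fold was above 0 in 51 of 57 members (89.5%, beside 51.8% of all genes), with a median of 0.22 beside 0.01. The median was 0.26 in the 21 small and 0.18 in the 36 large subunit genes, and 0.37 in the 8 genes above 100 FPKM, 0.21 in the 30 between 10 and 100, and 0.19 in the 19 below 10. Without BgnKO fructose replicate 4, 9 members had an unadjusted limma p under 0.05 (15.8%, beside 6.51% of all genes). In that fit 49 of 57 were above 0 (86.0%, beside 54.0% of all genes), and the median was 0.17. With the replicate number as a block 24 members had an unadjusted p under 0.05 (42.1%, beside 27.2% of all genes).

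Rps9, Rpl39 and Rps21 were among the members with the smallest p. Rps9, a small subunit protein next to the messenger RNA entry, was at 138, 109.6, 125 and 146 FPKM in BgnKO water and at 187, 142, 163 and 209 in BgnKO fructose. In both groups replicate 4 was highest and replicate 2 lowest, and the groups overlapped. The log2 differences were 0.42 for Rps9 (SE 0.13), 0.61 for Rpl39 (0.18) and 0.43 for Rps21 (0.14), all with a limma adjusted p of 0.318. Groups did not overlap for 3 of 57 members, Rpl39 and Rpl36 among them, beside 1.88% of all genes in that direction, and for 0 members in the other (2.11%).

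The 3 stalk genes had different values in this comparison: 0.50 for Rplp1 (limma adjusted p = 0.318), 0.35 for Rplp0 (0.643) and 0.19 for Rplp2 (0.502). The comparison shares the BgnKO fructose libraries with the genotype comparison on fructose, so the values of both are not independent. Summed markers were 1319 to 1951 FPKM in BgnKO water and 1484 to 2030 in BgnKO fructose for astrocytes, 144 to 289 and 204 to 288 for microglia, 1694 to 2126 and 2015 to 3171 for oligodendrocytes and 2401 to 2996 and 2227 to 2868 for neurons. Choroid plexus markers summed to 798 to 6256 and 2630 to 9148 FPKM, with 8 of 8 log2 folds above 0 and a median of 0.55. Log2 folds were also above 0 in 7 of 7 oligodendrocyte (median 0.32), 8 of 8 microglia (0.29) and 8 of 8 astrocyte markers (0.22). For neuron markers 2 of 8 were above 0 (median -0.11). Of the 16 libraries, BgnKO fructose replicate 4 had the highest choroid plexus sum (9148 FPKM). It also had the highest astrocyte (2030), oligodendrocyte (3171) and meninges and fibroblast (347) sums, and the lowest neuron (2227) and hippocampus (215) sums. Together with the larger share of nameless loci in BgnKO fructose, the part of these markers in the shift was not tested.

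The difference between the effects of fructose in the 2 genotypes was tested as an interaction. No member was called (0 of 57, beside 0.00791% of all genes in limma), and 5 had an unadjusted p under 0.05, all with the larger value in BgnKO (8.77%, beside 2.91% of all genes in either direction, 1.55% higher and 1.36% lower). The 5 became 2 (3.51%, beside 2.05%) without WT fructose replicate 4, 9 (15.8%, beside 5.54%) without BgnKO water replicate 4 and 10 (17.5%, beside 5.18%) without BgnKO fructose replicate 2. The distance from all genes was small with a term for replicate 1 (8.77% beside 8.10%) or a replicate block (12.3% beside 9.78%), and with replicates 2 to 4 alone the members were below all genes (5.36% beside 7.64%). Among them were Rpl39 with 0.71 (SE 0.26), Rps4x with 0.40 (0.14), Rps25 with 0.49 (0.19) and Rps27l with 0.47 (0.20), all with a limma adjusted p of 0.999. Rps4x was at 17.6, 15.3, 17.2 and 20.3 FPKM in WT water and 16.6, 16.5, 16.6 and 14.4 in WT fructose. In BgnKO it was at 13.3, 14.9, 15.1 and 18.3 FPKM on water and 18.1, 16.5, 19.2 and 21.3 on fructose. All 4 groups of Rps4x overlapped, and a different effect of fructose by genotype was not shown for any member.

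**Figure D4:**
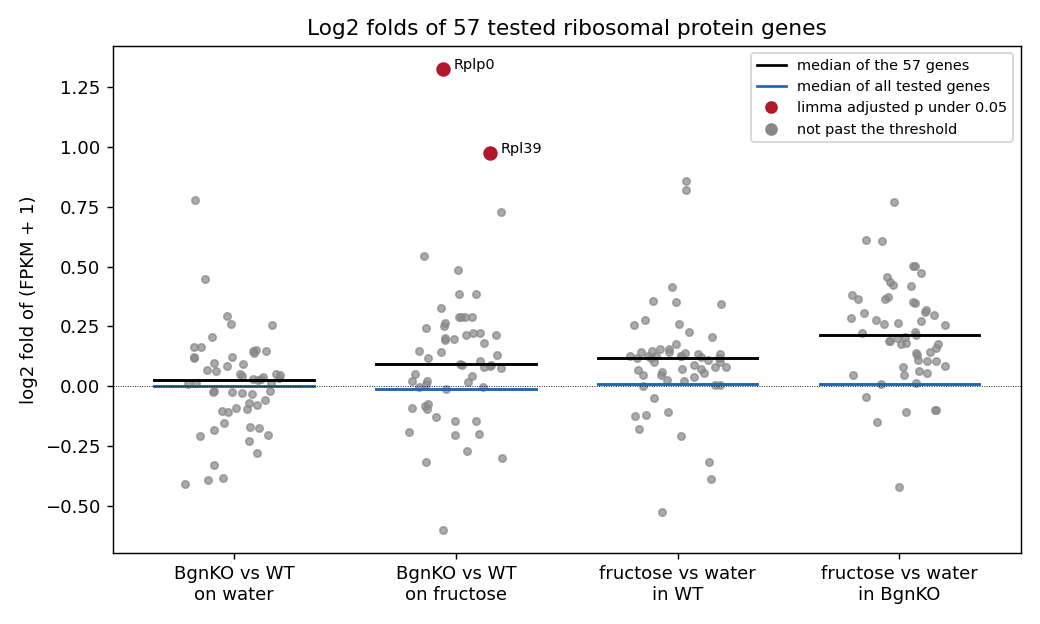
Log2 fold of (FPKM + 1) of the 57 tested members in the 4 pairwise comparisons (grey, and red where limma's adjusted p is under 0.05), with the median of the members (black) and of all 12648 tested genes (blue). In the main fit, which is drawn, only Rplp0 (1.33) and Rpl39 (0.98) pass in BgnKO against WT on fructose. The median of the members is 0.22 for fructose in BgnKO and 0.03 for genotype on water.

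Genes with and without a start tract by the rule above were set side by side, with no test. A gene without one may still hold a run that begins further from the start, so the sets are split by where a run begins and not by whether one is present. For fructose in WT the median log2 fold was 0.12 in the 16 tested genes with a tract and 0.07 in the 28 without one. For fructose in BgnKO the medians were 0.18 and 0.21, and for BgnKO against WT on fructose 0.05 and 0.16. The 4 X-linked members, which share the chromosome of Bgn, also differed among themselves. In BgnKO against WT on fructose, Rpl39 rose, Rps4x was higher by 0.21 (limma adjusted p = 0.240) and Rpl36a differed by -0.08 (0.896). Rpl10, only 0.787 Mb from Bgn, was below the 1 FPKM filter.

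Several members jumped between libraries without following the groups. Neighbours in the order of the 16 libraries differed by at least 2-fold in FPKM in 5 of the 57 members (8.77%). Among all tested genes 1.33% had such a gap, and a rise from 0 counted as one. The 5 members were Rpl5, Rpl19, Rpl26, Rpl35 and Rplp0. The low value of Rplp0 in WT fructose replicate 4 is given above, and Rplp0 is 1 of the 2 genes called in the main fit. Rpl5, which with Rpl11 carries 5S RNA and can bind Mdm2, was at 4.85 to 6.74 FPKM in the 4 replicate 1 libraries and at 0.102 to 0.539 in the other 12. Rpl11 was listed at 0 to 2.70 FPKM, with 0 in 7 libraries. Rpl26, at the exit of the tunnel, was at 50.4 to 62.7 FPKM in 5 libraries (WT water 2, WT fructose 2, BgnKO water 1, BgnKO fructose 1 and 3) and at 11.6 to 19.5 in the other 11.

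Rpl23 was at 24.4 to 37.3 FPKM in 6 libraries and at 9.44 to 12.2 in the other 10, a step just under the limit. Rps24, a gene with alternative short last exons, was at 25.9, 32.8 and 41.5 FPKM in 3 libraries and at 80.8 to 118 in the other 13. Rpl19 was at 1.38 FPKM in the library labelled WT fructose replicate 1, at 1.62 in BgnKO fructose replicate 3 and at 8.74 to 18.9 in the other 14. Rpl35 was listed at 0 in WT water replicate 4 and at up to 12.01 FPKM in the library labelled WT fructose replicate 1, with both low and high values in every group. Apart from Rplp0, none of these genes separated genotype or drink, and their group means were not read as effects.

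**Figure D5:**
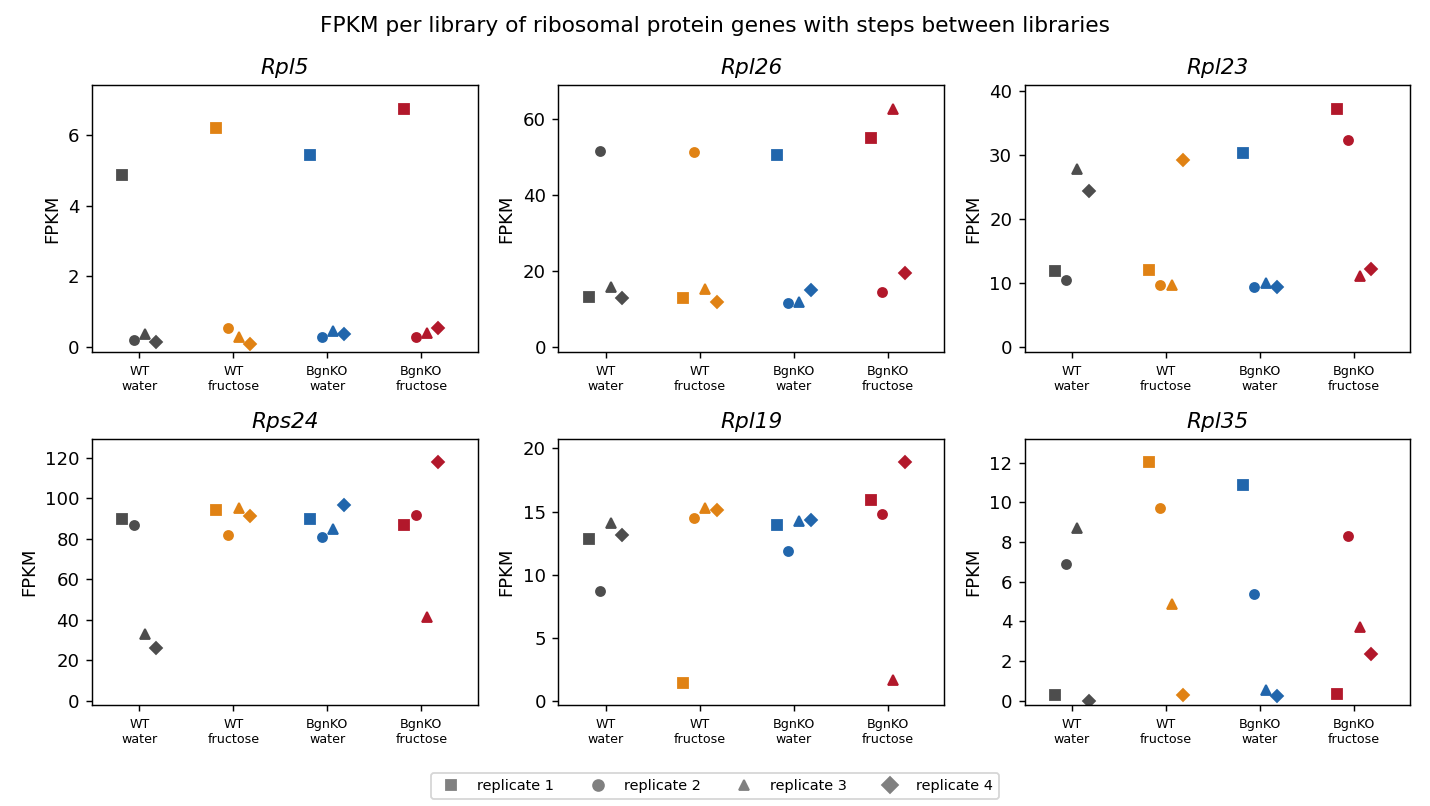
FPKM per library of Rpl5, Rpl26, Rpl23, Rps24, Rpl19 and Rpl35 by group, with a marker for each replicate number and no means, since values fall into separate levels. Rpl5 is high only in the 4 replicate 1 libraries, and the other 5 genes change level within groups.

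Of these genes Rpl5 alone followed the replicate number. Over the tested members, the replicate 1 libraries were all above the other 12 in 4 of 57 members (7.02%), beside 13.8% of all genes, and all below in 2 (3.51%), beside 7.28%. The ratio of the highest to the lowest library, each with 1 FPKM added, had a median of 1.74 in the members and 1.48 in all genes.

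Genes around the ribosome were described with the same test. Of 42 tested genes for ribosome biogenesis and RNA polymerase I, 1 fell in BgnKO against WT on fructose, beside 2.13% of all genes called lower: Polr1b, the second largest subunit of RNA polymerase I, was at 2.92 ± 0.267 FPKM in WT fructose and 2.01 ± 0.164 in BgnKO fructose (SD, n = 4, log2 -0.38, limma adjusted p = 0.0258). In the same comparison the nucleolar GTPase gene Gnl3 had -0.21 (limma adjusted p = 0.0518), and the median of the list was -0.11 beside -0.01 for all genes. No other gene was called, in any comparison, among 12 elongation and 34 initiation factors, 23 genes of mTORC1 and TOP control, 20 other TOP messages, 19 genes of ribosome quality control and 11 of the p53 and Mdm2 axis. Some genes stand in several of these lists, Npm1, Eef1g and Eif3f among them, so the lists are not separate sets.

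For fructose in BgnKO, where the members' median was 0.22, the medians were -0.03 for biogenesis, 0.05 for elongation, -0.01 for initiation, -0.04 for mTORC1 and TOP control, 0.07 for other TOP messages, -0.02 for quality control and 0.07 for the p53 axis. The smallest p in that comparison were those of Rrp9, a nucleolar RNA-processing gene, with 0.26, and Phlda3, a p53 target, with 0.25, both without overlap of the groups. Gnb2l1, which encodes the 40S-bound protein RACK1, had 0.34 and Eif3f, an initiation factor subunit, 0.33, whereas Nop58, a nucleolar protein gene, had -0.26 and Eif1ax, an initiation factor gene, -0.19. Each of these 6 had a limma adjusted p of 0.318. For fructose in WT the other TOP messages had a median of 0.10, close to the 0.12 of the members, and the elongation factors had 0.05. Tpt1, a TOP message, had -0.37 in BgnKO against WT on water (limma adjusted p = 0.472) and -0.40 on fructose (0.0784), without overlap of the groups in either.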

How the data were processed

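The data are FPKM (fragments scaled to transcript length and library size) that the authors deposited in 1 table of 27670 loci by 16 libraries. Per the labels' protocols, polyadenylated RNA was primed with random hexamers, fragments were selected at 200 to 400 base pairs, and sequencing was on a HiSeq 2500. Per the submitters' processing notes, TopHat, Bowtie, Cufflinks and Cuffdiff were used with mm10. The sources used here do not give versions, annotation, normalization, strand setting or the treatment of reads with several matches, so reads of a gene and of an antisense partner cannot be told apart. The 4269 loci without a name were left out of the tests, and loci of 1 name were summed (among the members Rpl36al, with 2 loci). FPKM keeps no depth, so counting error is unknown.

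limma 3.58.1 in R 4.3.3 was fitted to log2(FPKM + 1) for the 12648 genes that averaged 1 FPKM or more across libraries, with 4 group means and a mean-variance trend, 2-sided, and Benjamini-Hochberg adjustment over all genes of each of 5 comparisons at 0.05. SE is limma's moderated standard error, SD that of FPKM. The script was tested on simulated data. Positions and words of 31 bases came from GENCODE vM21 (GRCm38), promoters from RefSeq GRCm38.p6. A member's word share depends on the transcript chosen, here the shortest of those with the best APPRIS rank.

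For fructose against water, same-numbered libraries deviated together (correlations of 0.118 to 0.699 in WT and 0.197 to 0.612 in BgnKO, all over 0.1), as the data and not the labels show. For genotype the lowest correlations were -0.04 on water and 0.087 on fructose. The limit of 0.1 was a chosen one and divides the comparisons narrowly. For genotype on fructose the highest correlation was 0.750. There 5 of 8 libraries matched best with their own number, as for fructose in WT. The main tests used no pairing, and a replicate block is given as an alternative. Members and related lists were chosen with earlier results of these data known. Some members are not reported here. Members named were those called, the 5 with the smallest p per comparison, stalk genes, paralogs with their parents, Rpl5, Rpl11, Rps6, Rps27a, Fau, the 5 highest and lowest, and those listed at 0; the genes with steps, Rps3a1, Rps4y2 and a few near these were chosen after their values were seen. Alternatives were the pseudocount, the filter, rescaling, quantile normalization, a replicate block, a term for replicate 1, replicates 2 to 4 alone, the highest locus of a name, and leaving out each library; leaving out 2 doubtful libraries was added after seeing the data.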

Additional observations from a re-analysis of the deposited data

Results flagged for a closer look

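Among the 37 named members, 148 groups of 4 libraries were examined for a single library far from the other 3, and 19 had one. Chance alone flags about 1 in 20 groups, and values of one gene across groups are not independent.

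Rpl5 stood out in all 4 groups, always in replicate 1: 4.85 FPKM in WT water, 6.2 in the library labelled WT fructose replicate 1, 5.42 in BgnKO water and 6.74 in BgnKO fructose. High single libraries were also seen for Rpl10a in BgnKO water replicate 4 (2.46 FPKM), Rps10 in WT water replicate 2 (4.72, where the others were listed at 0 to 0.236) and Rps27 in WT water replicate 1 (3.54).

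Low single libraries were Rpl36a in BgnKO fructose replicate 1 (2.38 FPKM), Rpl36al in BgnKO water replicate 2 (35.5), Rps25, Rps27 and Rps4x in WT fructose replicate 4 (6.63, 1.55 and 14.4), the library in which Rplp0 was also lowest, and Rps29 in the library labelled WT fructose replicate 1 (listed at 0). Among genes with values near 0, the others being at or near 0, single libraries stood out for Rpl11 in WT water replicate 1 (0.0564 FPKM), Rpl39l in WT water replicate 2 (0.0450), Rpl3 in WT fructose replicate 4 (0.240), Rps23 in WT fructose replicate 2 (0.956) and BgnKO water replicate 1 (1.13), and Rps28 in BgnKO fructose replicate 1 (0.520).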

How the results depend on the processing

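The 25 pairs of a gene and a comparison with the smallest p (5 genes a comparison) gave 645 values under the alternatives, and all 645 kept their direction. Since these pairs were chosen by their p in the same data, a kept direction was likely in advance. Other members were not followed one by one. The members called in BgnKO against WT on fructose numbered 2 and ranged from 1 to 4 when 1 library was left out. Only Rpl39 was called without BgnKO fructose replicate 3 (1.75%, beside 1.96% of all genes) or replicate 4 (1.75%, beside 1.34%). Without BgnKO fructose replicate 1 there were 4, with Rpl28 among those added (7.02%, beside 7.44% of all genes). Without BgnKO fructose replicate 4 together with the library labelled WT fructose replicate 1 there was 1, Rpl39 (1.75%, beside 1.09% of all genes). There Rplp0 had a limma adjusted p of 0.0766. With a replicate block 7 were called, with Rpl39, Rplp0, Rpl41, Rps9 and Rps14 among the 6 higher and Rpl28 lower (12.3%, beside 19.6% of all genes). With a term for replicate 1 there were 5 (8.77%, beside 17.3%). In the other comparisons the replicate block called no member. It called 0.988% of all genes for genotype on water and 0.00791% for fructose in WT. For the interaction it called 0.00791% of all genes, and for fructose in BgnKO 0%. For Rpl28 limma's adjusted p was 0.0227 with the block and 0.0436 after quantile normalization.

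The family's share of FPKM moved with its denominator, to 0.353%, 0.354%, 0.351% and 0.325% over all loci in WT water, WT fructose, BgnKO water and BgnKO fructose, and to 0.537%, 0.580%, 0.552% and 0.661% without Rpl41, Rpl4 and Rpl8. No other count of called members moved by over 1.5 times and no median by more than 0.10, the SD of the family's level between replicates; the median for genotype on water changed sign, from 0.03 to -0.05 at its lowest. Counts at an unadjusted p moved more, as given with each comparison. Depth is unknown, and values under 1 FPKM were not tested.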

Other observations

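A further 2 genes with ribosomal protein names lie outside the members and had large differences between genotypes; they were chosen after their values were seen. Rps4y2, which RefSeq lists as a synonym of Rps4l, a transcribed processed pseudogene of the Rps4 family on chromosome 6, was at 13.5, 13.1, 16.6 and 22.7 FPKM in WT water and at 17.4, 9.78, 14.0 and 12.8 in WT fructose. In BgnKO it was at 29.4, 23.0, 24.4 and 18 FPKM on water and at 29.8, 24.0, 26.0 and 23.1 on fructose. The groups on fructose did not overlap and BgnKO rose by 0.90 on the log2 scale (SE 0.18, limma adjusted p = 0.0158). On water the groups overlapped and the difference was 0.51 (limma adjusted p = 0.574).

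Rps3a1, a small subunit gene, was at 42.3 to 46.1 FPKM in all 4 WT fructose libraries and at 19.8, 23.4, 23.0 and 0.721 in BgnKO fructose. In BgnKO water it was at 0.709, 42.5, 20.3 and 24.1 FPKM and in WT water at 43.8, 45.1, 17.5 and 34.7. The values fall near 3 levels, and the difference on fructose of -1.90 did not pass the test (SE 0.90, limma adjusted p = 0.238).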
